A study of Mus musculus with 6 samples.

Results

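The genes described here are 32 RNA-binding regulators of the hnRNP, PTB, PCBP and FET families and their relatives taken from a list of names. They are Hnrnpa0, Hnrnpa1, Hnrnpa2b1, Hnrnpa3, Hnrnpab, Hnrnpc, Hnrnpd, Hnrnpdl, Hnrnpf, Hnrnph1, Hnrnph2, Hnrnph3, Hnrnpk, Hnrnpl, Hnrnpm, Hnrnpr, Hnrnpu, Hnrnpul1, Hnrnpul2, Ptbp1, Ptbp2, Ptbp3, Pcbp1, Pcbp2, Syncrip, Raly, Ewsr1, Taf15, Tardbp, Elavl1, Khsrp and Matr3. They make up 32 of the 55414 genes and 359 of the 142435 transcripts in the count tables, and all 32 passed the filter on low counts. The RNA came from mouse CD8+ T cells of spleen and lymph nodes, all with the OT-I genotype, a transgenic T cell receptor that recognises a fragment of ovalbumin. The N4 group (2 libraries) received N4, the native form of that fragment, 4 days before the cells were taken. The T4 group (2 libraries) received T4, an altered form that stimulates this receptor less strongly, at the same interval. Each peptide was given with antibodies to the costimulatory receptors OX40 and 4-1BB, and the naive group (2 libraries) had neither, so the effects of peptide and of costimulation against naive cells cannot be told apart. Strain background, age and sex of the mice, and whether the libraries of a group came from separate mice, are not stated in the labels used here. The p-values therefore reflect the spread between libraries of a group, and that spread may be technical.

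Proteins of these families coat nascent transcripts in the nucleus and decide which exons are joined, where the transcript ends and how long it lasts in the cytoplasm. Most recognise short motifs: hnRNP A1 and its relatives bind UAG-containing sites, the F and H proteins runs of G, PTB proteins stretches rich in C and U, hnRNP C runs of U, the PCBP proteins and hnRNP K runs of C, and TDP-43 repeats of UG. Several act on the AU-rich elements that set the lifetime of cytokine and growth gene transcripts in T cells, and many control their own level by splicing in an exon, or leaving in an intron, that sends the transcript to nonsense-mediated decay.

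The libraries held 269033066 to 335968843 estimated counts, of which the 32 genes took 0.207 to 0.401%, with overlapping groups. The lowest count of any of them in a library was 621 and the highest 182730. The 8 CD8 T cell markers summed to 3227 to 4722 CPM over the libraries (counts scaled to library size and TMM factor). Cd3d was the largest part, at 1367 to 3013. The 4 markers of CD4 T cells summed to 0.958 to 5.04 CPM. Single CD8 T cell markers were not even, with a median log2 fold change of -0.66 in N4 against naive. Lower values were those of Cd2 (-1.587), Cd8b1 (-1.545), Cd3e (-0.886), Cd8a (-0.885), Lck (-0.433) and Cd3g (-0.43). Cd3d (0.157) and Cd5 (0.292) had higher ones. Only Cd2 was called in that comparison (adjusted p = 0.0472, edgeR). RNA of other cells was uneven. All 10 macrophage markers fell in N4 against naive, and their sum was 17.1 and 20.3 CPM in N4 libraries, 258 and 271 in T4 libraries and 2243 and 2672 in naive ones. The 8 neutrophil markers summed to 6.27 to 47.6 CPM in the stimulated libraries and to 2446 and 25320 in the naive ones. The 7 red cell markers summed to 360 and 423 CPM in N4 libraries, 6511 and 8124 in T4 libraries and 3447 and 9232 in naive ones. For 8 dendritic cell markers the sums were 83.2 and 63.2, 535.5 and 518.7, and 1954 and 1264 in the same order. For 8 B cell markers they were 4.31 and 2.74, 59.0 and 57.2, and 26.0 and 66.3. The 6 NK cell markers had median log2 fold changes in N4 of -4.99 against naive and -3.31 against T4. Nkg7 was higher in both (1.298 and 1.475), and Eomes against naive (0.198). The 16 cell division genes summed to 1916 and 1976 CPM in N4 libraries, 770 and 826 in T4 libraries and 355 and 437 in naive ones, and 15 of them rose in N4 against naive and 6 in N4 against T4. The part of these levels in the results below was not tested. In bulk samples, fewer cells of a type and less RNA per cell cannot be told apart.

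With TMM scaling, 8 of the 32 genes were called higher in N4 than in naive libraries and 8 higher than in T4. None was called lower in either comparison. Hnrnpa0, Hnrnpa3, Hnrnpd, Hnrnpu, Syncrip and Tardbp rose in both comparisons, Hnrnpa1 and Hnrnpa2b1 only passed the test against naive, and Hnrnph2 and Ptbp2 only against T4. Among all genes tested, 4.87% were called higher in N4 against naive and 3.48% in N4 against T4 (edgeR's quasi-likelihood test, adjusted p under 0.05). Among the 9237 genes with a mean level at least that of the lowest of the 32, the shares were 8.99% and 7.56%, beside 25% of the 32 in each. The median log2 fold change of the 32 genes was 0.69 against naive and 0.71 against T4, and over all genes it was -0.09 and -0.20. Both N4 libraries lay above both naive libraries for 22 of the 32 genes (26.5% of all genes) and below them for 0 (28.9% of all genes). Both N4 libraries lay above both T4 libraries for 23 (27.6% of all genes) and below them for 0 (37.6% of all genes).

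These counts rested on the scaling between libraries and on single libraries. The TMM factors were 0.821 and 0.641 in N4 libraries, 1.36 and 1.283 in T4 libraries and 1.307 and 0.833 in naive ones. With scaling by library total, which moved the median of all genes to -0.65 against naive and -1.05 against T4, none of the 32 genes was called in any comparison, and their medians became 0.12 and -0.15. The shares of all genes called higher were then 3.02% and 1.39%. Without the library N4 replicate 2, 0 genes were called in both N4 comparisons, and without N4 replicate 1, 1 and 0. Without either T4 library the counts were 1 against naive and 0 against T4, whereas without naive replicate 1 they were 7 and 14, and without naive replicate 2 they were 9 and 15. Calls over all genes moved in the same way: 0.708 to 1.53% were higher than naive and 0 to 0.245% higher than T4 without an N4 or T4 library, 3.34% and 8.84% without naive replicate 1, and 8.36% and 8.97% without naive replicate 2. Where N4 or T4 is left with 1 library, that library is assumed to vary like the other groups.

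In T4 against naive cells, 0 of the 32 genes passed the same test (edgeR). Over all genes 0.117% were called in either direction, so few calls were available. At an unadjusted p under 0.05 the 32 genes held 2, Hnrnpd with higher and Hnrnph2 with lower values in T4, beside 14.5% of all genes at that p. DESeq2 called the same pair, beside 8.67% of all genes, so both counts were below the share over all genes. Both T4 libraries lay above both naive libraries for 7 genes (26.2% of all genes) and below them for 7 (22.6% of all genes), and the median log2 fold change was -0.08, beside 0.00 for all genes. All 3 comparisons share libraries with one another, so their values are set side by side without a test of agreement.

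**Figure D1:**
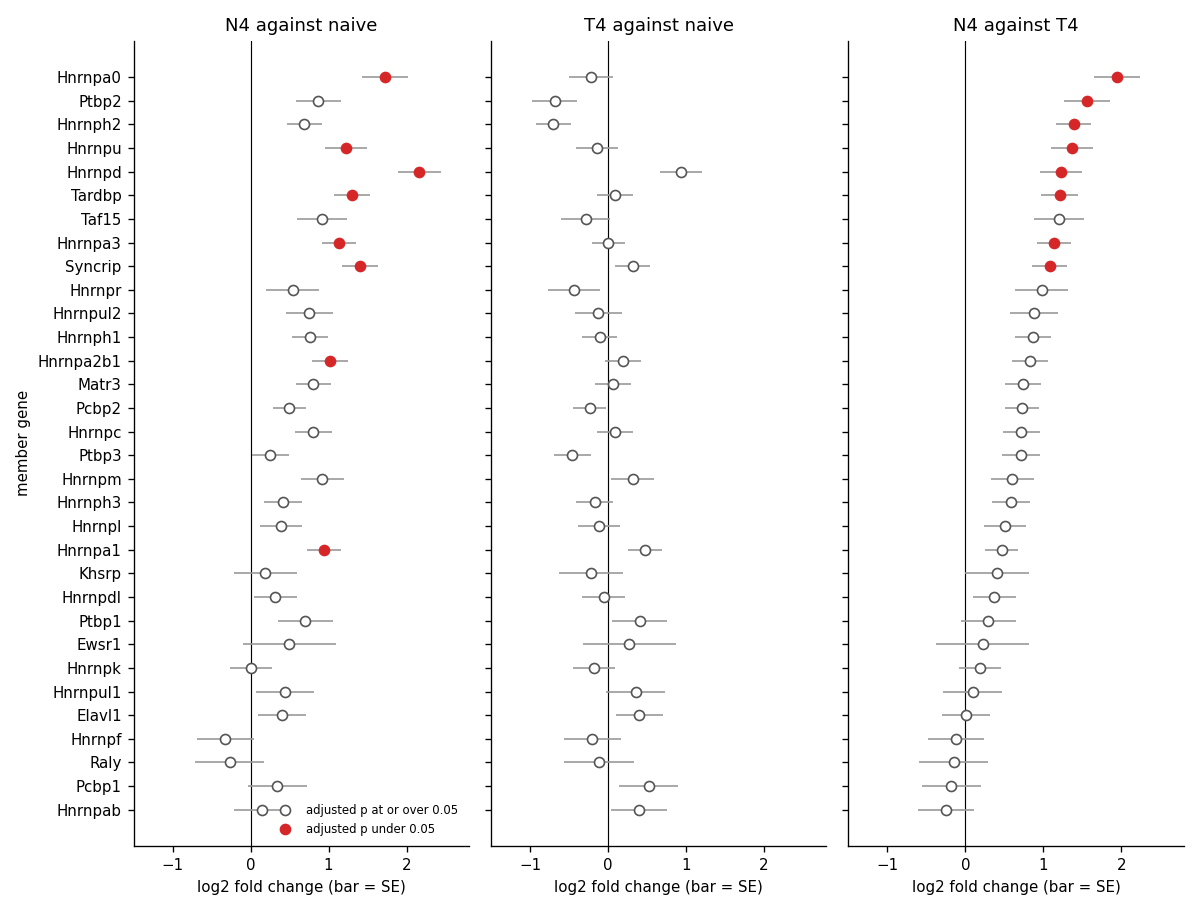
Log2 fold change of each of the 32 genes in the 3 comparisons, ordered by N4 against T4, with bars for the standard error; filled red points have an adjusted p under 0.05 (edgeR). The 8 red points in N4 against naive and the 8 in N4 against T4 all lie to the right of 0, and T4 against naive has none.

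Of the A/B proteins, the most abundant splicing repressors of the nucleus, all 4 genes rose in N4 against naive. Hnrnpa2b1, which encodes hnRNP A2 and B1, stood at 725 and 778 CPM in N4 libraries, 450.2 and 399 in T4 libraries and 384 and 359.8 in naive ones. Both N4 libraries were the highest and no 2 groups overlapped. The mean rose from 372 ± 16.7 to 752 ± 37.4 CPM (SD, n = 2), a log2 fold change of 1.02 with a standard error of 0.23 and an adjusted p of 0.0439 (edgeR), and N4 against T4 gave 0.83 with an adjusted p of 0.0792 (edgeR). Hnrnpa1, the founding member of the group, stood at 264 and 269 CPM in N4 libraries, 194 and 192 in T4 libraries and 139 and 138 in naive ones. The groups were cleanly separated, with T4 in the middle. Its log2 fold change against naive was 0.94 with a standard error of 0.21 and an adjusted p of 0.0436 (edgeR), whereas N4 against T4 gave 0.47 with an adjusted p of 0.209 (edgeR).

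Hnrnpa3 stood at 206 and 206.5 CPM in N4 libraries, 95.3 and 92.6 in T4 libraries and 96.8 and 90.5 in naive ones. The N4 libraries lay apart at 2.20-fold the naive mean, and T4 and naive overlapped. Its log2 fold change was 1.14 against naive (adjusted p = 0.0273, edgeR) and 1.13 against T4 (adjusted p = 0.0371, edgeR), each with a standard error of 0.21. Hnrnpa0, a single-exon relative that binds AU-rich elements, stood at 89.1 and 70.9 CPM in N4 libraries, 19.6 and 22.0 in T4 libraries and 19.6 and 28.8 in naive ones. Again the N4 libraries were far above the rest, and T4 and naive overlapped. Its mean of 80.0 ± 12.9 CPM in N4 was 3.31-fold that in naive (adjusted p = 0.0208, edgeR) and 3.85-fold that in T4 (adjusted p = 0.0263, edgeR). Counts of Hnrnpa1, Hnrnpa3, Syncrip and Hnrnph2 are less certain than those of Hnrnpa0, because 54.1%, 28.2%, 30.4% and 30.1% of the 50-base windows of their main transcripts also occur in other genes, beside 0.0% for Hnrnpa0. Of the genes that were not called, Hnrnpf (51.6%) and Hnrnpk (38.0%) had the most shared windows.

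Hnrnpd encodes AUF1, which binds AU-rich elements and promotes or delays the decay of the transcripts that carry them. It stood at 130.0 and 142 CPM in N4 libraries, 58.2 and 58.1 in T4 libraries and 36.3 and 24.4 in naive ones. The groups followed one another without overlap, naive lowest and N4 highest. Its log2 fold change was 2.16 against naive, with a standard error of 0.28 and an adjusted p of 0.0119 (edgeR), the largest of the 32 genes in that comparison, and 1.22 against T4, with an adjusted p of 0.0492 (edgeR). T4 against naive gave 0.94 with an adjusted p of 0.206 (edgeR). Its call against naive held in 12 of 14 alternative settings, with adjusted p-values from 6.86e-12 to 0.078, and its call against T4 in 8. The other 7 genes called against naive held in 5 to 8 of the 14, with Hnrnpa1 and Hnrnpu at 5, and the 8 calls against T4 in 7 to 9. The relatives Hnrnpdl and Hnrnpab were not called: Hnrnpdl ran from 28.5 to 43.8 CPM over all libraries and Hnrnpab from 104 to 209, with N4 and T4 overlapping for Hnrnpab.

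**Figure D2:**
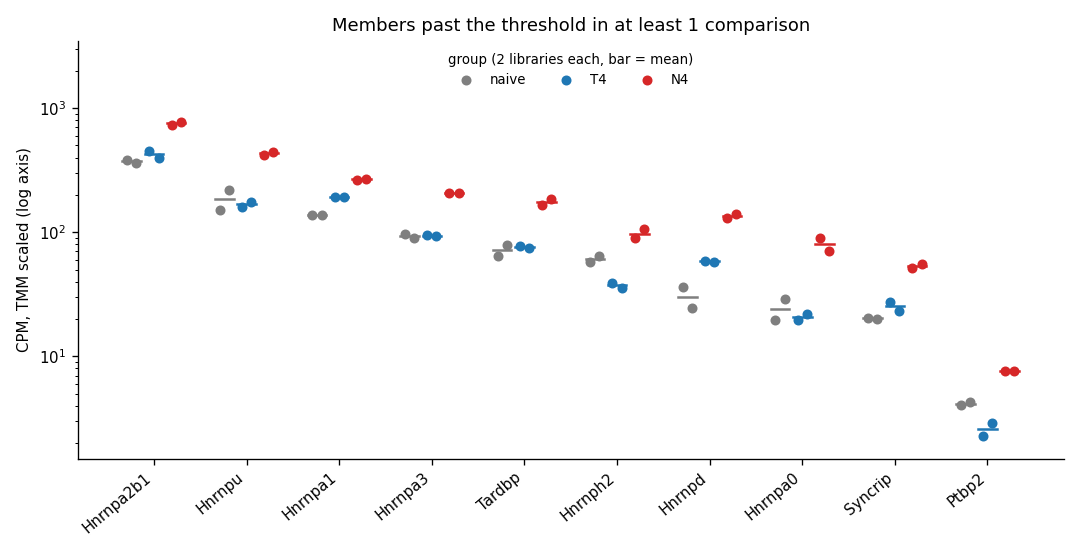
CPM of the 10 genes past the threshold in at least 1 comparison, on a log axis, with 1 point per library and a bar at the mean of the 2 libraries of a group. For each gene both N4 libraries lie above all 4 other libraries, and T4 lies below naive for Hnrnph2 and Ptbp2 without overlap.

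Of the other nuclear proteins, Hnrnpu, a scaffold protein of chromatin and the nuclear matrix also called SAF-A, stood at 421 and 444 CPM in N4 libraries, 159 and 177 in T4 libraries and 152 and 218 in naive ones. N4 was apart and the other groups overlapped, with log2 fold changes of 1.22 against naive (adjusted p = 0.0399, edgeR) and 1.37 against T4 (adjusted p = 0.0403, edgeR). Most of these counts were not in the coding transcript: Hnrnpu-205, a processed transcript that lies 3′ of the coding one, held 62.4 to 84.4% of them, and the coding transcript Hnrnpu-201 held 23.9 and 19.6% in N4 libraries, 37.4 and 27.1% in T4 libraries and 36.7 and 15.4% in naive ones. In protein-coding transcripts alone, an alternative added after seeing the data, Hnrnpu stood at 106 and 93.0 CPM in N4 and 59.8 and 35.8 in naive libraries, and its adjusted p was 0.0963 against naive and 0.184 against T4 (edgeR), past the threshold in neither. The relatives Hnrnpul1 and Hnrnpul2 were not called and lay between 6.47 and 17.3 CPM in all libraries.

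Syncrip (hnRNP Q), which binds AU- and A-rich RNA and acts in translation and decay, stood at 51.1 and 55.9 CPM in N4 libraries, 27.2 and 23.3 in T4 libraries and 20.5 and 19.96 in naive ones. The 3 groups did not overlap. Its log2 fold change was 1.40 against naive (adjusted p = 0.0191, edgeR) and 1.08 against T4 (adjusted p = 0.0435, edgeR), while its paralogue Hnrnpr, at 18.5 to 46.3 CPM, was not called. Tardbp, which encodes TDP-43, stood at 165 and 186 CPM in N4 libraries, 77.3 and 74.8 in T4 libraries and 64.2 and 78.5 in naive ones. N4 lay apart at 2.46-fold the naive mean, and T4 and naive overlapped, with log2 fold changes of 1.299 (adjusted p = 0.0245, edgeR) and 1.21 (adjusted p = 0.0388, edgeR). In coding transcripts alone Tardbp gave 1.37 against naive (adjusted p = 0.0487, edgeR) and 1.47 against T4 (adjusted p = 0.0549, edgeR). The calls of Hnrnpd, Syncrip and Ptbp2 against T4 were likewise lost in coding transcripts alone, with adjusted p-values of 0.0544, 0.0565 and 0.0555 (edgeR), at log2 fold changes of 1.33, 1.06 and 1.56.

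Hnrnph2, an X-linked member of the group that binds G runs, stood at 89.8 and 105 CPM in N4 libraries, 39.2 and 35.5 in T4 libraries and 57.3 and 63.9 in naive ones. T4 was lowest, naive between and N4 highest, without overlap. N4 against T4 gave a log2 fold change of 1.39 (standard error 0.23, adjusted p = 0.0297, edgeR), and neither stimulated group differed from naive past the threshold (adjusted p = 0.102 for N4 and 0.248 for T4, edgeR). Of its relatives, Hnrnph1 stood at 58.8 and 70.8 CPM in N4 and at 35.3 to 39.8 in the other 4 libraries, Hnrnph3 at 47.0 and 59.9 against 35.3 to 43.4, and Hnrnpf at 80.0 to 153 with all groups overlapping. None of these 3 was called.

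The PTB genes encode repressors of exon inclusion: Ptbp1 is the form of most tissues, Ptbp2 the form best known from neurons, whose transcript Ptbp1 can send to decay, and Ptbp3 is found in blood cells. Ptbp2 was the least abundant of the called genes, at 7.67 and 7.55 CPM in N4 libraries, 2.27 and 2.91 in T4 libraries and 4.02 and 4.30 in naive ones. As with Hnrnph2, T4 was lowest and N4 highest without overlap, and N4 against T4 gave a log2 fold change of 1.55 (standard error 0.29, adjusted p = 0.0373, edgeR). Against naive, neither N4 (adjusted p = 0.105, edgeR) nor T4 (adjusted p = 0.359, edgeR) passed. Ptbp1 ran from 16.5 to 44.2 CPM with N4 and T4 overlapping. Ptbp3 stood at 58.0 and 67.3 CPM in N4, 38.2 in each T4 library and 46.3 and 58.8 in naive libraries, and was not called.

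The other genes of the set did not pass the test in any comparison. Hnrnpc, which binds U runs, was the second most abundant, at 541 and 517 CPM in N4 and 276 to 329.7 in the other 4 libraries, and its relative Raly ran from 23.9 to 52.8 CPM with all groups overlapping. Hnrnpk, the poly(C)-binding protein of nucleus and cytoplasm, ran from 288 to 416 CPM, Pcbp1 from 54.2 to 117, and Pcbp2 stood at 95.7 and 91.2 in N4 against 53.2 to 66.5 elsewhere. Hnrnpl, known in T cells for repressing variable exons of the CD45 transcript, ran from 192 to 312 CPM, with N4 at 312 and 301. Hnrnpm stood at 77.3 and 64.6 CPM in N4 against 31.1 to 51.8 elsewhere, and Matr3, a nuclear matrix protein, at 29.4 and 35.5 against 18.3 to 19.99. Of the FET proteins, Ewsr1 ran from 18.6 to 72.3 CPM, and its lowest and highest values were the 2 naive libraries. Taf15 stood at 5.34 and 5.52 CPM in N4 against 2.18 to 3.27. Elavl1 (HuR), which stabilises transcripts with AU-rich elements, stood at 33.2 and 26.7 CPM in N4 libraries, 31.3 and 28.4 in T4 libraries and 27.9 and 17.2 in naive ones, with T4 just above naive and N4 overlapping both. Khsrp, which hastens their decay, ran from 9.88 to 20.7 CPM with overlapping groups.

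Levels divided by transcript length, as shares of the library without scaling factors (the unit TPM), allow the genes to be compared with one another. Hnrnpa2b1 was the highest in each group, at 281 ± 42.9 in N4 libraries, 316 ± 48.2 in T4 libraries and 217 ± 105 in naive ones (SD, n = 2), followed by Hnrnpc at 169 ± 37.9, 212 ± 13.9 and 142 ± 41.4; in naive libraries the 2 genes differed by less than the SD of Hnrnpa2b1. Hnrnpk came next in each group, at 90.2 ± 5.67, 151 ± 22.3 and 136 ± 88.6. Hnrnpul2 was the lowest, at 1.58 ± 0.03 in T4 and 1.32 ± 0.53 in naive. On this scale the means of Hnrnpa2b1, Hnrnpc and Hnrnpk were lower in N4 than in T4. Of the 8 genes called higher in N4 against T4, both N4 libraries lay above both T4 libraries for 4 (Hnrnpa0, Hnrnph2, Hnrnpu and Ptbp2), and the groups overlapped for 3 (Hnrnpa3, Hnrnpd and Syncrip). Tardbp was lower in N4, at 41.6 and 43.7 against 52.5 and 46.8 in T4. Hnrnpd had rank 8 in N4, at 47.4 ± 7.30, and rank 18 in naive, at 17.7 ± 12.0.

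The size of the difference between N4 and T4 went with the GC content of the genes, which runs from 39.5 to 58.3% of exon bases. Across the 32 genes, Pearson's r between GC content and log2 fold change was -0.45 in N4 against T4 (Spearman's rho -0.56) and -0.33 in N4 against naive (rho -0.46), and across 9187 genes at their level it was -0.33 and -0.19. The 16 genes of lower GC content had a median log2 fold change of 0.92 against T4 and the 16 of higher GC content 0.39. GC content also went with differences between libraries of 1 group: r with the log2 ratio of replicate 1 to replicate 2 was 0.83 for N4, 0.51 for naive and 0.16 for T4. These are descriptions across genes that share the same libraries. With a correction for GC content in the fit, 12 of the 32 genes were called higher in N4 against naive and 14 in N4 against T4, the 8 of each main comparison among them, and T4 against naive still gave none. Calls rose over all genes too, to 9.02% and 10.1% higher, and the medians of all genes moved to 0.27 and 0.26.

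**Figure D3:**
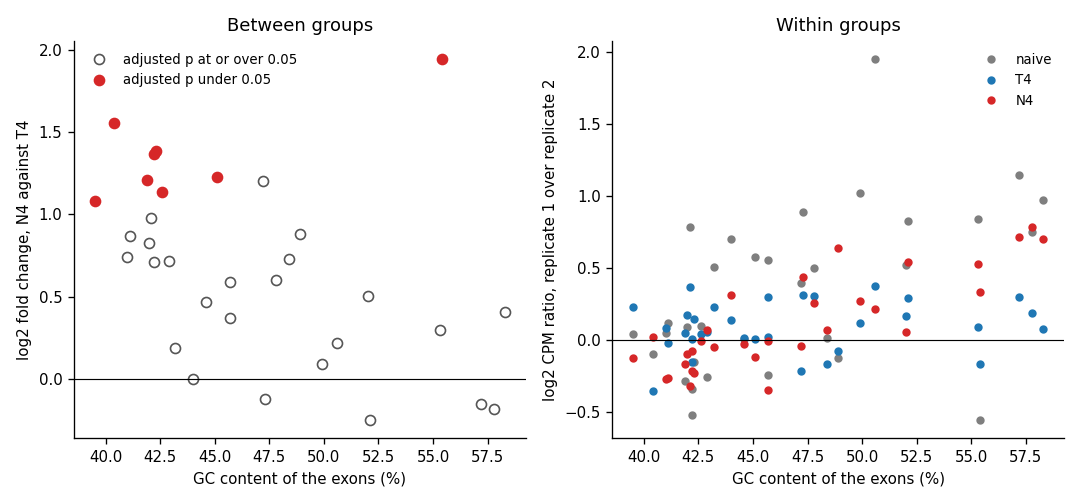
GC content of the exons of each of the 32 genes (x axis, %) against its log2 fold change in N4 against T4 (left) and against the log2 ratio of replicate 1 to replicate 2 within each group (right). Hnrnpa0 is the called gene of high GC content on the left, and the N4 and naive points on the right rise from left to right, with r of 0.83 and 0.51.

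Of the start regions, 29 of the 32 genes have an entry in the RefSeq-derived promoter table (GRCm38.p6, 250 bases before to 50 after the start); Hnrnpul2, Ptbp3 and Matr3 have none. The promoters of Hnrnpd and Hnrnpa0 are shown because these genes had the largest changes in N4 against naive and against T4. Capitals mark matches, on either strand, to the letters CACGTG (the E-box), CCGGAAG (an ETS core), GGGCGG (the GC box) and CCAAT.
Hnrnpd, chr5:99978889-99979188, minus strand: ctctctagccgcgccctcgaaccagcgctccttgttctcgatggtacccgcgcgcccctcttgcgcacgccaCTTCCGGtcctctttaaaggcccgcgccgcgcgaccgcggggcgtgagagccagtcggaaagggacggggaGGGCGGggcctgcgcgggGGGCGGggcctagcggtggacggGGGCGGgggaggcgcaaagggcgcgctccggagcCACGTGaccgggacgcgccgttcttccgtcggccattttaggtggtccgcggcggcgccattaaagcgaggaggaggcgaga
Hnrnpa0, chr13:58128507-58128806, minus strand: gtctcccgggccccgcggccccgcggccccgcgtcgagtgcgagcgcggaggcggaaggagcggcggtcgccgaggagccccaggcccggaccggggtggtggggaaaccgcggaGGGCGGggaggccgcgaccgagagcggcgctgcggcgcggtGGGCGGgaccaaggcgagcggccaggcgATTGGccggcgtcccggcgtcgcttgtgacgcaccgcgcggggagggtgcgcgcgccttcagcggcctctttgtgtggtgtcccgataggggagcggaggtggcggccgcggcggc
Hnrnpd has 1 E-box, 1 ETS core and 3 GC boxes, and Hnrnpa0 has 2 GC boxes and 1 CCAAT box. At least 1 GC box lies in 23 of the 29 genes (79.3%, beside 38.2% of 27025 genes in the table), a CCAAT box in 17 (58.6% beside 41.1%), an E-box in 7 (24.1% beside 8.1%) and an ETS core in 4 (13.8% beside 9.9%). The TATA box letters TATAAA, which overlap none of these, lie in 2 (6.9% beside 15.7%). All 10 called genes have an entry: 9 of them hold a GC box, 5 a CCAAT box, 3 an E-box (Hnrnpa3, Hnrnpd and Hnrnph2) and 1 an ETS core. The shares beside them are over all genes in the promoter table, which were not matched to the 32 genes by level or GC content. A match is a description of the letters in this window.

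Few transcripts of the 32 genes passed a test of their proportion within the gene. The test of transcript usage, which asks whether a transcript changes differently from the rest of its gene, covered 280 transcripts of 30 of the genes. It called 1 in N4 against naive (0.271% of all 42446 transcripts tested), 0 in T4 against naive (0.0942%; 15 had an unadjusted p under 0.05, as had 5.28% of all transcripts) and 2 in N4 against T4 (0.339%). Hnrnpul1-201, a coding transcript of the hnRNP U relative that acts in the DNA damage response, held 44.9 and 38.5% of its gene's counts in T4, 38.6 and 40.2% in naive and 0% in both N4 libraries, where a count of 0 allows up to 0.0785 and 0.102%. Its adjusted p was 0.00601 against naive and 0.005 against T4 (edgeR's diffSpliceDGE). Hnrnpul1-205, another coding transcript, held 95.4 and 92.2% in N4 against 47.3 to 57.8% elsewhere. The second call against T4 was the minor coding transcript Syncrip-207, with 3.4 and 1.3% in N4 and 0.0% in the other libraries (adjusted p = 0.0419, edgeR). These calls were lost without either N4 library or either T4 library, when 0 or 1 transcripts of the 32 genes were called in each comparison.

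By size alone, 327 transcripts of 25 of the genes had at least 10 CPM per gene in every library and could be compared. Their share of the gene differed by at least 10 percentage points without overlap for 21 in N4 against naive (6.4%, beside 5.86% of all such transcripts), 16 in T4 against naive (4.9% beside 3.89%) and 19 in N4 against T4 (5.8% beside 6.01%), which is near the background in each. The plainest case was Raly. Raly-202 held 75.4 and 62.3% of its counts in naive, 23.7 and 20% in T4 and 6.8 and 3.9% in N4 libraries, while Raly-203 held 6.3 and 13.8%, 48.5 and 31.4%, and 45.0 and 45.6%. Raly-204 was also higher in N4, at 39.5 and 33.6% against 6.1 and 6.0% in naive libraries, while Raly-201 lay at 4.9 to 19.1% throughout. A gene whose total overlapped between all groups had Raly-202 as its main transcript in naive libraries and Raly-203 in N4 ones, with T4 mixed. The usage test called neither change in N4 against naive (adjusted p = 0.116 for Raly-202 and 0.459 for Raly-203, edgeR's diffSpliceDGE). Both transcripts skip the 48-base coding exon described below, and they differ at the 83-base non-coding exon.

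Ptbp1 differed mainly between T4 and naive: Ptbp1-216 held 66.1 and 73.3% in T4 and 21.4 and 22.3% in naive, and Ptbp1-206 the reverse, 7.2 and 1.5% against 65.3 and 60.3%. The N4 libraries disagreed with one another, with 62.8 and 28.9% for Ptbp1-216 and 21.1 and 62.8% for Ptbp1-206, and the minor Ptbp1-202 was above 0 in T4 alone, at 5.5 and 16.9%. Ptbp2-213 held 33.6 and 39.7% of the Ptbp2 counts in N4 and 0.0% in the other libraries, in a gene below the 10 CPM limit. Matr3-201 held 76.7 and 80.2% in naive, 35.7 and 42.5% in T4 and 31.3 and 70.4% in N4, with Matr3-215 and Matr3-217 listed at 0.0% in naive and at up to 33.0% in the stimulated libraries. Elavl1-201 held 90.7 and 97.9% in naive and 50.7 and 35.1% in T4, but 18 and 97.5% in the N4 libraries, with Elavl1-204 as its counterpart. Such pairs of libraries that disagree show how far the estimated transcript counts of 1 group can be apart.

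The remaining transcripts past the limit of 10 points are given next. In Hnrnpd, Hnrnpd-203 held 59.8 and 39.0% in N4 and 33.0 and 31.0% in naive, and Hnrnpd-201 28.7 and 29.2% in T4 and 37.0 and 45.4% in naive. In Hnrnpdl the coding Hnrnpdl-202 held 52.1 and 62.5% in N4 against 43.1 and 39.5% in T4, and Hnrnpdl-207 16.9 and 23.4% in N4 against 31.6 and 41.1% in naive. Hnrnph2-202 held 29.6 and 37.3% in N4 and 23.2 and 21.2% in naive, with Hnrnph2-203 as its counterpart. The others were Hnrnpf-209 and Hnrnpf-210, Hnrnpm-201 and Hnrnpm-202, Hnrnpr-204, Pcbp2-212 and Pcbp2-216, Ptbp3-208 and Ptbp3-212, Syncrip-208 and Syncrip-210, and Tardbp-204.

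Single exons show what these transcripts differ in. Cassette exons, which some transcripts of a gene include and others skip, numbered 49 in 21 of the genes. Their inclusion differed by at least 10 points without overlap for 7 in N4 against naive (14.3%, beside 5.81% of 2357 such exons in all genes), 10 in T4 against naive (20.4% beside 4.92%) and 7 in N4 against T4 (14.3% beside 5.9%). These counts are a description, with no test of inclusion. Exons of 1 gene share their reads. The 6 such exons inside coding sequence are shown, since each adds or removes a stretch of the protein; capitals mark the cassette exon and lower case the 15 bases of spliced transcript on either side (GENCODE M21, GRCm38).
Ptbp1, chr10:79860117-79860194, plus strand: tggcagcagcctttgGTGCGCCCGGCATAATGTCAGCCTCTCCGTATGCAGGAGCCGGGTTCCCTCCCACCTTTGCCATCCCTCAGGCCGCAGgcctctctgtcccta
Raly, chr2:154859911-154859958, plus strand: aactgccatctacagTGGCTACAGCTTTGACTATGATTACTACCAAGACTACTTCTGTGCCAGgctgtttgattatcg
Hnrnpd, chr5:99976534-99976590, minus strand: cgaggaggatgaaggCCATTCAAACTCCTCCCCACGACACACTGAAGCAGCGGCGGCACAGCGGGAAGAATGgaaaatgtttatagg
Hnrnpd, chr5:99963731-99963877, minus strand: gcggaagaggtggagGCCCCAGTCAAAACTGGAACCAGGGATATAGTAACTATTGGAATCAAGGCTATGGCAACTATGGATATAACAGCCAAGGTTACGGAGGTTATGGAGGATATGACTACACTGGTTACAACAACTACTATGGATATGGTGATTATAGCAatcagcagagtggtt
Pcbp2, chr15:102485948-102486040, plus strand: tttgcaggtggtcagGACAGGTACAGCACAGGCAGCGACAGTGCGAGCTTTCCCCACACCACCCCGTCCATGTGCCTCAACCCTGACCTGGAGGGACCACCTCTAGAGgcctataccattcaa
Pcbp2, chr15:102488776-102488814, plus strand: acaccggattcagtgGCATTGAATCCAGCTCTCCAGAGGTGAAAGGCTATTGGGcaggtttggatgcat
All 6 have a length divisible by 3, so inclusion adds residues without a shift of frame: 26 in Ptbp1, 16 in Raly, 19 and 49 in Hnrnpd and 31 and 13 in Pcbp2.

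Inclusion here comes from the estimated counts of whole transcripts that include or skip the exon, not from reads over its junctions. On that measure the 78-base exon of Ptbp1 was included in 86.7 and 79.9% in T4 and in 32.2 and 27.0% in naive libraries. This was the widest gap of the coding exons. The N4 libraries disagreed, with 74.2%, below both T4 libraries, and 31.5%, within the naive range. The 48-base exon of Raly was included in 45.8 and 40.5% in N4 libraries, 26.7 and 48.1% in T4 libraries and 17.2 and 21.5% in naive ones, so that both stimulated groups lay above naive and overlapped each other. A non-coding exon of Raly of 83 bases near the start of the gene (chr2:154821007-154821089) separated all 3 groups, at 87.2 and 78.5% in naive, 43.4 and 34.5% in T4 and 12.9 and 9.9% in N4.

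In Hnrnpd the 2 exons give the 4 known AUF1 proteins. The 57-base exon was included in 55.7 and 58.5% in naive, 37.1 and 50.5% in T4 and 33.0 and 53.6% in N4, lower in both stimulated groups. The 147-base exon was included in 50 and 41.9% in naive and 59.9 and 54.7% in T4, and at 62.5 and 45.5% the N4 libraries overlapped both. In Pcbp2 the 93-base exon was included in 44.8 and 53.6% in N4 and 38.9 and 37.3% in naive, and the 39-base exon in 60.6 and 39.4% in N4 and 65.4 and 63.3% in T4. Other well-known cassettes stayed within a few points: the 36-base exon that tells hnRNP B1 from A2 was included in 14.9 to 22.1% over the 6 libraries, and the 141-base exon of Hnrnpab in 29.9 to 35.7%. The 8 exons apart in at least 1 comparison that lie outside coding sequence are in Hnrnpa1, Hnrnpa2b1, Hnrnpc, Hnrnpdl, Hnrnph2, Hnrnpr, Raly and Syncrip.

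**Figure D4:**
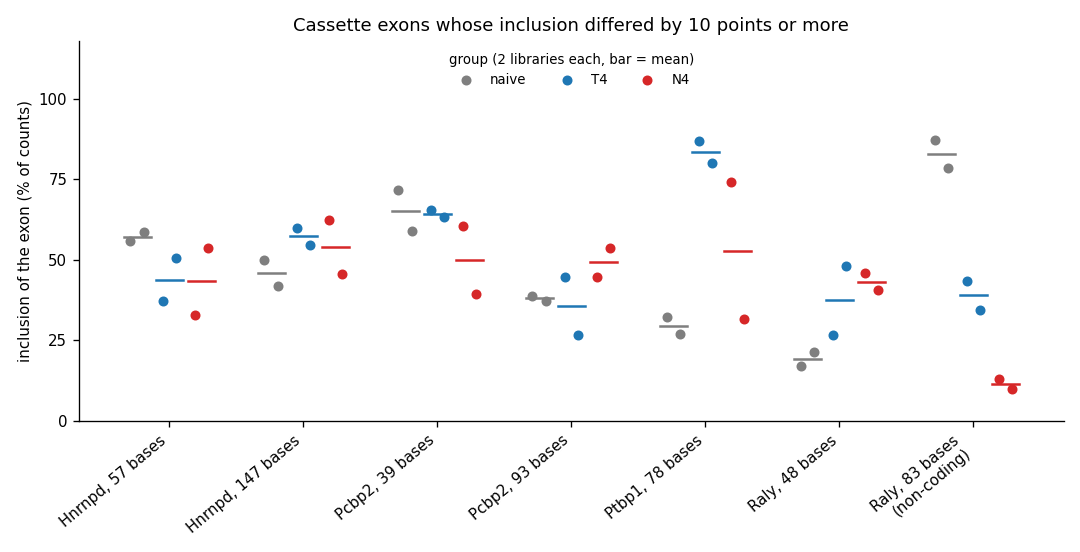
Inclusion of the 6 coding cassette exons and of the 83-base non-coding exon of Raly. Values are percentages of the estimated counts of transcripts that include or skip the exon. Each library has 1 point, and a bar marks the group mean. The Raly non-coding exon separates naive, T4 and N4, and the Ptbp1 exon shows 2 N4 libraries at 74.2 and 31.5%.

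The annotation marks 38 transcripts of 15 of the genes as nonsense-mediated decay targets. They held less of the counts of Hnrnpa1, Hnrnpd and Hnrnph3 in N4 than in the other libraries. Over all 996 genes with such transcripts, their share was lower without overlap in 22% (N4 against naive) and 28.3% (N4 against T4). In Hnrnpa1 the share of decay transcripts was 16.4 and 18.5% in N4 libraries, 27.3 and 29.3% in T4 libraries and 29.4 and 23.8% in naive ones. N4 was below both other groups, with means of 17.5 ± 1.52, 28.3 ± 1.40 and 26.6 ± 3.96% (SD, n = 2). Its decay transcripts went in opposite directions: Hnrnpa1-203 held 7.2 and 8.7% in N4 against 21 to 24.5% elsewhere, and Hnrnpa1-204 held 9.2 and 9.8% in N4 libraries, 6.3 and 5.9% in T4 libraries and 4.9 and 1.1% in naive ones. In Hnrnpd the decay share was 5.74 and 8.76% in N4 libraries, 10.6 and 19.9% in T4 libraries and 15.8 and 14.8% in naive ones, and in Hnrnph3 4.61 and 6.63%, 8.16 and 10.3%, and 9.46 and 9.67%. Both Hnrnpa1 and Hnrnpd rose in amount in N4 against naive, while Hnrnph3 was not called.

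Hnrnpdl, with the decay transcript Hnrnpdl-201, had a decay share of 28.0 and 12.8% in N4 libraries, 28.1 and 34.2% in T4 libraries and 15.7 and 19.9% in naive ones, highest in T4. In Tardbp the share was 23.2 and 41.2%, 41.0 and 48.8%, and 45.8 and 28.8%, so the groups overlapped and Tardbp-230 alone went from 6.6 to 44.1% between libraries. Without overlap the decay share was lower in N4 than in naive for 6 of the 15 genes, Hnrnpa1, Hnrnpa2b1, Hnrnpd, Hnrnph3, Hnrnpk and Hnrnpr (22% of 996 genes with such transcripts), and lower in N4 than in T4 for 5, Hnrnpa1, Hnrnpd, Hnrnpdl, Hnrnph3 and Hnrnpr (28.3%). The shares of Hnrnpk and Hnrnpr were under 1% but for 1 T4 library of Hnrnpr. Hnrnpdl was lower than T4 only narrowly, at 28.03 against 28.06% in the nearest libraries. Syncrip was higher in N4 without overlap, at 0.98 and 0.38% against 0% elsewhere. Over the 15 genes the median difference was -0.10 points both in N4 against naive and in N4 against T4, beside -0.01 and -0.07 over all 996 genes. Its SD over pairs of libraries was 0.53 and 0.16 points. With counts divided by transcript length, the median against naive was 0.00, with 7 genes lower and 7 higher. For retained intron transcripts (72 of 23 of the genes) the median difference was -0.11 points with 16 genes lower in N4 than in naive, and -0.25 with 17 lower in N4 than in T4. Over all 2143 genes with such transcripts, 60.6% and 66.5% were lower in the same comparisons, with medians of -0.10 and -0.18. Libraries were made with a SMARTer ultra-low poly(A) kit, and decay transcripts are degraded in the cell, so these shares are of the RNA present.

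**Figure D5:**
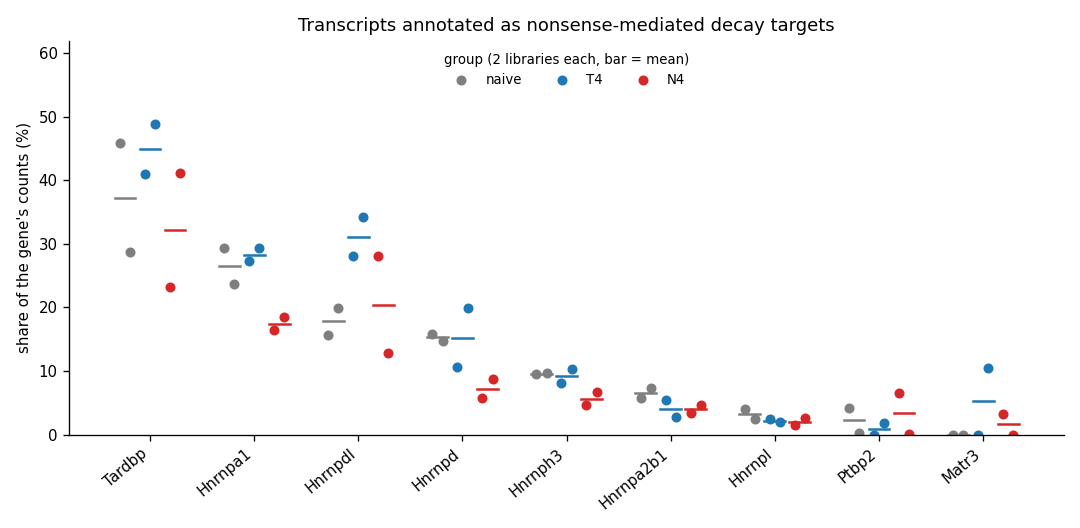
Share of each gene's counts in transcripts annotated as nonsense-mediated decay targets, for the 9 genes with a group mean of at least 2%, with 1 point per library and a bar at the group mean. Hnrnpa1, Hnrnpd and Hnrnph3 have both N4 libraries below all others, and the Tardbp points of all groups overlap.

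Relatives and partners outside the set were read from a list of 30 RNA-binding genes, 29 of them measured. In N4 against naive 4 were called higher and 3 lower, in T4 against naive 0 in either direction, and in N4 against T4 2 higher and 3 lower. Among all genes 7.18% and 4.47% were called lower in the N4 comparisons, beside the 4.87% and 3.48% called higher. The list had median log2 fold changes of 0.20, 0.11 and 0.29 in the same order of comparisons. Those with the smallest p in both N4 comparisons were Rbm3 and the 3 Zfp36 genes. Rbm3, a cold-induced RNA-binding protein, stood at 1686 and 2776 CPM in N4 and at 448 to 531 in the other libraries (log2 fold change 2.09 against naive, adjusted p = 0.0172, edgeR). The Zfp36 proteins bind AU-rich elements and recruit the deadenylation machinery. Zfp36 stood at 25.2 and 22.1 CPM in N4 libraries, 179 and 196 in T4 libraries and 165 and 140.0 in naive ones, Zfp36l1 at 17.5 and 13.4 in N4 against 57.0 to 78.5 elsewhere, and Zfp36l2 at 20.8 and 21.2 against 49.5 to 63.2. All 3 were lower in N4 in both comparisons, with log2 fold changes of -2.69, -2.14 and -1.42 against naive (adjusted p = 0.00764, 0.0122 and 0.0205, edgeR), whereas Hnrnpd, which binds the same class of element, was higher.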

How the data were processed

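The authors deposited estimated counts per gene and per transcript, not normalized, as whole numbers. The submitters' processing notes name mm39, the tools StringTie 2.1.0, STAR 2.7.1a, DESeq2 1.30.1, R 4.0.5 and SAMtools 1.9, without roles. RNA was extracted with QIAGEN miRNeasy Micro and libraries made with SMARTer ultra-low poly(A) V4, per the labels' protocols. If the estimates derive from coverage, the totals are not numbers of reads, and intervals and limits from counts, which cover counting error only, are too narrow. Symbols, transcript types, lengths, GC content and exons came from GENCODE M21 on GRCm38, another build, which matched 97.1% of transcripts. No per-sample column was left over.

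The gene test was edgeR 4.0.16 (R 4.3.3) on all 6 libraries: TMM, filterByExpr by group (23003 genes), quasi-likelihood test, Benjamini-Hochberg adjustment, threshold 0.05. The standard error is the log2 fold change divided by the root of F. Usage was tested with diffSpliceDGE. Shares and inclusion were computed in Python 3.11.15 from transcript counts. All procedures were tested on simulated data, where the usage test found few changes unless the spread was small. Alternatives were scaling, filter, GC correction, DESeq2 1.42.0, replicate block, fewer groups and left-out libraries. Replicates differed far beyond sampling noise. The members and lists were chosen with earlier results of these data known. Every gene is named, with values in every library for those called, transcripts where called or at least 10 points apart, and at most 4 called genes per comparison of the other RNA-binding list. Cassette exons, promoters and a coding-only fit were added after seeing the data.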

Additional observations from a re-analysis of the deposited data

Results flagged for a closer look

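Hnrnph2 and Ptbp2 were singled out because N4 and T4 lay on opposite sides of naive without overlap and differed from one another in the gene test (edgeR, adjusted p = 0.0297 and 0.0373). Hnrnph2 was 1.39 higher in N4 than in T4 on the log2 scale, with naive means of 60.6 ± 4.62 CPM between 97.6 ± 10.9 in N4 and 37.3 ± 2.58 in T4 (SD, n = 2). Ptbp2 was 1.55 higher, with 4.16 ± 0.20 CPM in naive between 7.61 ± 0.09 and 2.59 ± 0.45. The difference of either stimulated group from naive did not pass the threshold. In all 14 alternatives the fitted values kept naive between them. Hnrnph2 ran from 0.14 to 0.794 in N4 against naive and from -0.867 to -0.375 in T4 against naive. Ptbp2 ran from 0.333 to 1.004 and from -0.944 to -0.373. Both genes were picked for this order, so settings that leave out 1 library could hardly change it. On the scale per length, Hnrnph2 in naive libraries, at 28.9 and 16.8, overlapped N4 (25.6 and 22.6) and T4 (20.2 and 16.7). Ptbp2 in naive libraries, at 3.39 and 2.44, stayed between N4 (5.25 and 5.34) and T4 (1.87 and 2.37).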

How the results depend on the processing

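Of the genes called higher in N4 against naive and N4 against T4 (8 and 8, beside 4.87% and 3.48% of all genes), scaling by library total gave 0 and 0 (3.02% and 1.39% of all genes), relative log expression 5 and 8 (4.38% and 3.22%), no filter 6 and 7 (3.98% and 4.21%), GC correction 12 and 14 (9.02% and 10.1%), only the 2 groups compared 1 and 16 (1.4% and 12.2%), DESeq2 15 and 17 (11% and 12%), and coding transcripts alone, added after seeing the data, 7 and 3 (3.48% and 1.8%). T4 against naive gave 0 throughout, but 2 with DESeq2. Leaving out 1 library gave 0 to 9 and 0 to 15. Replicate numbers are shared by the labels, which do not say whether they pair the libraries. Over 23003 genes, replicate differences correlated at 0.08 (N4 and naive), 0.037 (T4 and naive) and 0.017 (N4 and T4). These values cannot settle pairing. Among the 32 genes, the log2 difference of replicate 1 and 2 had a positive r with GC content in each group. It was 0.83 in N4, 0.51 in naive and 0.16 in T4. With a replicate block 9, 0 and 8 genes were called, and 0, 1 and 1 transcripts in the usage test. There Ptbp1-202 was called, and the calls of Hnrnpul1-201 and Syncrip-207 were lost. Usage gave 2 and 2 with a filter of 1 CPM and 1 and 1 with library totals, and 0 to 1, 0 to 1 and 0 to 2 without 1 library in N4 against naive, T4 against naive and N4 against T4. Directions turned mainly in T4 against naive, where the main values lay near 0, and the cause was not tested. With library totals the median in T4 against naive became 0.21, Hnrnpa0 0.145 and Hnrnpu 0.218. In N4 against T4 library totals also turned values that were far from 0. There the median went from 0.71 to -0.15, Hnrnpa1 from 0.466 to -0.39 and Hnrnpa2b1 from 0.825 to -0.039. In T4 against naive Hnrnpa3 became -0.053 with relative log expression and with DESeq2, and with coding transcripts alone Hnrnpu became 0.277 and Tardbp -0.095. Without 1 library the same comparison ran from -0.13 to 0.04 for the median, -0.563 to 0.084 for Hnrnpa0, -0.065 to 0.003 for Hnrnpa3, -0.472 to 0.14 for Hnrnpu, -0.138 to 0.24 for Tardbp and -0.02 to 0.14 for the relative usage of Hnrnpul1-201. Median share differences moved with length division, to 0.15 points (retained introns, T4 against naive) and -0.49 (N4 against T4). Without 1 library they ran from -0.82 to -0.1 (decay, N4 against T4), 0.00 to 0.12 and -0.44 to -0.11 (retained introns, T4 against naive and N4 against T4). Of 280 recomputed transcript share differences 10 moved beyond the spread and 0 changed sign. The transcripts were picked because their groups did not overlap, so leaving out 1 library could not turn a sign.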

Other observations

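Shares within a family, computed from levels per length, do not depend on the scaling between libraries. Of the summed level of Hnrnpd, Hnrnpdl and Hnrnpab, Hnrnpd held 40.1 and 49.4% in N4 libraries, 22.2 and 26.0% in T4 libraries and 16.1 and 17.9% in naive ones, so that the 3 groups were apart, while Hnrnpab held 50.4 and 39.9% in N4 and 64.5 to 70.7% in the other libraries. Among the F and H genes, Hnrnph2 held 23.1 and 27.2% in N4 libraries, 13.1 and 11.1% in T4 libraries and 13.7 and 21.7% in naive ones, and Hnrnpf 43.4 and 28.4%, 55.6 and 59.8%, and 61.7 and 43.8%. Syncrip held 49.5 and 45.2% of the sum of Syncrip and Hnrnpr in N4 libraries, 44.8 and 48.7% in T4 libraries and 27.8 and 38.2% in naive ones, higher in both stimulated groups, which overlapped.

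Hnrnpa0 held 4.9 and 3.7% of the A/B genes in N4 against 1.7 to 3.2% in the other libraries, while Hnrnpa1 held 21.6 and 21.2% in N4 libraries, 27.3 and 29.5% in T4 libraries and 23.7 and 25% in naive ones, highest in T4. Among the PTB genes, Ptbp1 held 54.1 and 48.8% in T4 against 25.2 to 40.5% elsewhere. Ptbp2 held 18.5 and 29.6% in N4 libraries, 7.1 and 9.4% in T4 libraries and 11 and 16.3% in naive ones. GC content differs between the genes of a family, and its part in these shares was not tested.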
